A study of Homo sapiens with 4 samples.

Results

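Long intergenic noncoding RNAs (lincRNAs) are transcripts from genes of their own that carry no long open reading frame. The deposited tables annotate 7307 of them on chromosomes 1 to 22, and 98 had at least 200 exon reads in 1 or more of the 4 libraries. These 98 genes are described here. The read counts themselves chose them: 31 reached 200 reads in all 4 libraries and 39 in 1 library alone. For a gene that entered through a single library, a higher count there is therefore tied to its entry. The gap could be small, as for NUP50-DT with 202 reads in A549 spheroids and 188 in H1993 spheroids. Of the remaining lincRNAs, 4361 had 0 reads in every library, 2044 had a highest count of 1 to 9 reads and 804 a highest count of at least 10 but under 200 reads. Just inside the limit stood FP236241.1 with a highest count of 201 reads, NUP50-DT with 202 and LINC01127 with 206. Just outside stood LINC02577 with 197 reads, GLIDR with 190 and LINC02987 with 189.

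The libraries came from A549 and H1993, which are established lung adenocarcinoma cell lines that the labels describe as lung epithelial cells. Each line was grown as spheroids, clusters of cells that float free of the dish, and adherent, attached to it, and the study's design compares these cultures as a source of cancer stem cells. There was 1 stranded mRNA library for each of H1993 spheroids, A549 spheroids, adherent H1993 cells and adherent A549 cells, and no genetic change or inhibitor is named for any of the 4. A difference between a pair of libraries therefore has no replicate check, and 95% counting intervals are given beside the folds, which cover counting error only.

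Many lincRNAs act in the nucleus, where NEAT1 scaffolds paraspeckles and MALAT1 gathers in nuclear speckles with splicing factors. Others act in the cytoplasm, as NORAD does by holding RNA-binding proteins. A further group is transcribed mainly as the precursor of microRNAs or small nucleolar RNAs, and the spliced remainder is what an exon count measures.

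The adherent library labelled H1993 resembled A549 adherent cells more than H1993 spheroids in these genes too. Across the 98 lincRNAs its log2 levels had a Pearson correlation of 0.56 with H1993 spheroids and of 0.883 with A549 adherent cells, as a description over genes that share their libraries. Of the 98, 53 were at least 2-fold apart between H1993 spheroids and the adherent library labelled H1993, against 26 between that adherent library and A549 adherent cells and 32 between A549 spheroids and A549 adherent cells. Over all 14759 filtered genes of chromosomes 1 to 22 these shares were 35.6%, 13.3% and 23.65%, against 54.1%, 26.5% and 32.7% of the members, and the correlations 0.855 and 0.958, so the same order of likeness held over all filtered genes. Every value for that library is given as labelled, and in the H1993 pair culture and identity of the library cannot be told apart. Exon reads per library were between 15331121 and 17681746. The summed level of 6 epithelial markers was 9501 TPM (reads scaled by exon length, as deposited) in H1993 spheroids, 3633 in A549 spheroids, 2196 in the adherent library labelled H1993 and 6489 in A549 adherent cells. In A549 adherent cells most of it came from KRT8 and KRT18, at 2601 and 3670 TPM. By the 2-fold rule given below, CLDN4 and KRT19 were higher and KRT18 lower in A549 spheroids than in A549 adherent cells. In the H1993 pair all 6 were higher. The 5 lung lineage markers summed to between 0.979 and 2.35 TPM, and 3 or 4 of them, depending on the library, had at most 3 reads. The 5 mesenchymal markers summed to 83.4 TPM in H1993 spheroids, 645.9 in A549 spheroids, 430.1 in the adherent library labelled H1993 and 374.4 in A549 adherent cells. VIM gave most of each sum, at 66.2, 630.1, 384.4 and 356.0 TPM. In the H1993 pair 3 of the 5 were lower and 1, COL1A1, was higher. In the A549 pair 1 was lower and 0 higher. Endothelial markers summed to between 0.332 and 3.22 TPM, and blood cell markers to between 25.7 and 131 TPM with 2 or 3 of 4 at no more than 3 reads. Nearly all of the blood cell sum came from CD68 in every library. The part of these marker levels in the differences below was not tested, and in bulk RNA fewer cells of a type and less RNA per cell cannot be told apart.

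The RNA that leaves a host gene is often better known than the host. A total of 9 of the 98 are named as microRNA hosts, and 8 of these contain a microRNA of the same strand within the files' coordinates. Mature sequences are shown for the hosts on which the results turn, from RefSeq (GRCh38.p14), written 5′ to 3′ with the seed (bases 2 to 8) in capitals, because the seed decides which messages a microRNA can pair with.
hsa-miR-210-3p (MIR210HG, chr11:568112-568133, minus strand): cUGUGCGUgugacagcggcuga
hsa-miR-29b-3p (MIR29B2CHG, chr1:207802450-207802472, minus strand): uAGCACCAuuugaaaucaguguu
hsa-miR-29b-3p (AC016831.1, chr7:130877467-130877489, minus strand): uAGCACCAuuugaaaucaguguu
hsa-miR-29c-3p (MIR29B2CHG, chr1:207801865-207801886, minus strand): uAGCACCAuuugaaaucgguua
hsa-let-7i-5p (MIRLET7IHG, chr12:62603691-62603712, plus strand): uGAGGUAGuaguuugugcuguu
hsa-miR-4458 (MIR4458HG, chr5:8460933-8460951, plus strand): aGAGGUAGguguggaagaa
hsa-miR-34a-5p (MIR34AHG, chr1:9151735-9151756, minus strand): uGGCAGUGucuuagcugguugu
hsa-miR-22-3p (MIR22HG, chr17:1713914-1713935, minus strand): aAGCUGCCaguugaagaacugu
hsa-miR-193b-3p (MIR193BHG, chr16:14304017-14304038, plus strand): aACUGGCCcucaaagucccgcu

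These fall into 6 seed groups, as counted from the sequences above. The miR-29 group, with seed AGCACCA, came from a pair of hosts on different chromosomes, and AC016831.1 carries it without being named for it. The let-7 seed, GAGGUAG, was shared by let-7i-5p and miR-4458. A search of the other members, without PVT1, LINC00589 and AC090204.1, found microRNAs in 3 genes not named for one: AC016831.1, MEG3 (miR-770-5p and miR-2392) and MUC20-OT1 (miR-570-3p and miR-570-5p). The libraries measured the host transcripts and not the mature microRNAs.

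NORAD (chr20:36045622-36050960, minus strand) and HCG11 (chr6:26521709-26527404, plus strand) are near copies of each other on different chromosomes. Their transcripts in GENCODE release 29, of 5339 bases for NORAD and 5696 for HCG11, align over 4660 bases with 90.4% identity. The exon reads of the pair could still be told apart: at least 95.9% of the reads on HCG11 and between 78.2% and 79.0% of those on NORAD were counted as unique.

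Together the 98 lincRNAs took 0.847% of exon reads in H1993 spheroids, 0.791% in A549 spheroids, 0.578% in the adherent library labelled H1993 and 0.505% in A549 adherent cells. Most of that came from 3 genes: NEAT1, MALAT1 and NORAD made up 74.5%, 75.5%, 71.6% and 68.6% of the members' reads in the same order of libraries. The median member stood at 18.7 TPM in H1993 spheroids, 12.4 in A549 spheroids, 12.8 in the adherent library labelled H1993 and 10.8 in A549 adherent cells. Their TPM summed to 4726 in H1993 spheroids, 3801 in A549 spheroids, 2929 in the adherent library labelled H1993 and 2902 in A549 adherent cells. Shares of reads and summed TPM were higher in both spheroid libraries than in both adherent libraries, and the median of A549 spheroids lay between the adherent libraries.

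In structure these genes were longer and had more exons than the lincRNAs left out. Their median exon length was 3365.5 bases with a median of 9 annotated exons, against 712 bases and 3 exons for the other lincRNAs, and 19 of the 98 had a single exon. A long gene collects more reads at the same level, so the length of the members is tied to the read limit. Of the 98, 19 overlapped a protein-coding gene, 8 on the same strand and 13 on the opposite strand, and 15 started within 1 kb of a coding gene that runs the other way. In 68 members at least 90% of the exon reads were unique in every library, and in 21 the share was under 50% in every library. Near-identical copies are among these 21: CU633904.1, CU633906.1, CU633967.1 and FP236241.1 on chromosome 21 aligned to each other with 99.95% to 100% identity and had at most 1.4% unique reads, so how reads were divided among them is uncertain.

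NEAT1 and MALAT1 were the most abundant members per length, and both stood higher in spheroids by less than 2-fold. MALAT1 (ENSG00000251562, chromosome 11, 65497762 to 65506516) reached 872 TPM in H1993 spheroids, 832 in A549 spheroids, 630 in the adherent library labelled H1993 and 456 in A549 adherent cells. NEAT1 (ENSG00000245532, chromosome 11, 65422774 to 65445540) reached 545 TPM in H1993 spheroids, 495 in A549 spheroids, 289 in the adherent library labelled H1993 and 286 in A549 adherent cells. Both spheroid libraries lay above both adherent libraries for each gene.

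For NEAT1 the log2 fold of scaled reads was 0.90 (95% counting interval 0.88 to 0.92) in the A549 pair and 0.84 (0.82 to 0.86) in the H1993 pair. MALAT1, 52222 bases further along the chromosome, had 0.98 (0.95 to 1.0) in the A549 pair and 0.40 (0.37 to 0.42) in the H1993 pair. The 10 listed paraspeckle proteins, which bind NEAT1, had a median log2 fold of -0.74 in the A549 pair, where 1 was lower by the 2-fold rule and none higher, and of 0.07 in the H1993 pair, where none passed. NEAT1 exons thus stood higher in A549 spheroids while the median of its listed protein partners was below 0. NORAD (ENSG00000260032) had 493 TPM in H1993 spheroids, 339 in A549 spheroids, 258 in the adherent library labelled H1993 and 242 in A549 adherent cells, with log2 folds of 0.60 (0.55 to 0.64) in the A549 pair and 0.86 (0.81 to 0.90) in the H1993 pair. HCG11, its near copy, was far less abundant, at 4.98 TPM in H1993 spheroids, 10.2 in A549 spheroids, 7.68 in the adherent library labelled H1993 and 10.1 in A549 adherent cells. Its level was lowest in H1993 spheroids, where NORAD was highest.

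In the following counts a lincRNA is called higher or lower where its TMM-scaled reads were at least 2-fold apart, the interval excluded no change and the gene passed edgeR's filter on low counts, as 96 of 98 did. Shares of all 15273 filtered genes under the same rule stand beside them, followed by shares of the genes on chromosomes 1 to 22 that met the 200-read limit, whatever their type. Over all 98 members the median log2 fold was 0.32 in the A549 pair and 0.34 in the H1993 pair, against -0.04 and 0.05 over genes at the read limit. Because of the way the members entered, these values say nothing about lincRNAs as a class.

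In A549 spheroids LINC02889, LINC00589, LINC03034, MIR210HG, SOX21-AS1 and MEG3 stood 5-fold or more above A549 adherent cells. The overlapping pair AC245041.1 and AC245041.2 stood far below. LINC02889, LINC03034 and SOX21-AS1 reached 200 reads in A549 spheroids alone, so a higher level there was tied to their entry. In all, 20 members were higher and 11 lower (20.8% and 11.5%), against 12.4% and 10.3% of all filtered genes and 9.98% and 9.58% of genes at the read limit. LINC03034 (ENSG00000259772, chromosome 15, 31221999 to 31230838) had 218 exon reads in A549 spheroids and 17 in A549 adherent cells, a log2 fold of 3.47 (2.91 to 4.42), and it was at least 4-fold above each of the other 3 libraries. SOX21-AS1, which starts 317 bases from SOX21 on the other strand, had 210 reads in A549 spheroids and 35 in A549 adherent cells (2.46, 2.0 to 3.08). SOX21, a neural and airway transcription factor gene, had 346 reads in A549 spheroids and 91 in A549 adherent cells, with a log2 fold of 1.84. Both transcripts of that divergent pair were higher in the spheroid library.

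Among the lower members, CYTOR, a lincRNA linked to cell proliferation and the cytoskeleton, had 179 reads in A549 spheroids and 498 in A549 adherent cells, a log2 fold of -1.53 (-1.79 to -1.29). SNHG19, a small nucleolar RNA host, had 123 reads in A549 spheroids and 314 in A549 adherent cells (-1.40, -1.73 to -1.11). AC006058.1, a single-exon gene at chromosome 3, 44117299 to 44122365, had 180 reads in A549 spheroids and 638 in A549 adherent cells (-1.88, -2.14 to -1.65).

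H1993 spheroids differed in more members from the adherent library labelled H1993: 30 were higher and 21 lower (31.2% and 21.9%), against 17.0% and 18.0% of all filtered genes and 16.8% and 14.6% of genes at the read limit. Among them AL139246.5, LINC00589, LINC02967, AC016831.1, LNCAROD and LINC00665 had log2 folds between 3.97 and 4.47. Each of these reached the read limit in H1993 spheroids alone, so a higher level there was tied to its entry. LNCAROD (ENSG00000231131, chromosome 10, 52450874 to 52470533), named as an activator of DKK1 expression, had 1461 reads in H1993 spheroids, 191 in A549 spheroids, 89 in the adherent library labelled H1993 and 141 in A549 adherent cells. Its log2 fold in the H1993 pair was 4.19 (3.91 to 4.55). DKK1, a secreted Wnt inhibitor and the nearest coding gene at 132832 bases, had 2686 reads in H1993 spheroids and 10252 in the adherent library labelled H1993, a log2 fold of -1.75. The lincRNA and the coding gene it is named for therefore lay on opposite sides of 0 in this pair.

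Lower members of the H1993 pair included CASC15, LINC01234, MIRLET7IHG, LINC00973 and PURPL. LINC01234 (ENSG00000249550, chromosome 12, 113679459 to 113773683) had 52 reads in H1993 spheroids, 534 in A549 spheroids, 482 in the adherent library labelled H1993 and 431 in A549 adherent cells. It was low in H1993 spheroids and close to level in the other 3 libraries, with a log2 fold of -2.98 (-3.47 to -2.61) in the H1993 pair and 0.24 (0.06 to 0.43) in the A549 pair. LINC00973 showed a like order, with 14 reads in H1993 spheroids, 285 in A549 spheroids, 131 in the adherent library labelled H1993 and 143 in A549 adherent cells, but at most 24.9% of them were unique.

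Between spheroids of the lines, H1993 over A549, 25 members were higher and 29 lower (26.0% and 30.2%), against 18.0% and 19.1% of all filtered genes and 18.6% and 16.0% at the read limit. PURPL, a p53-induced lincRNA that lowers p53 levels (ENSG00000250337, chromosome 5, 27472292 to 27496401), had 39 reads in H1993 spheroids and 763 in A549 spheroids, a log2 fold of -4.11 (-4.68 to -3.71). TP53TG1, another p53-linked transcript, had 123 reads in H1993 spheroids and 282 in A549 spheroids (-1.07, -1.40 to -0.77), which was no longer past 2-fold when scaled by TPM (-0.90) or library size (-0.98). MIR34AHG, host of the p53-induced miR-34a, had 118 reads in H1993 spheroids and 218 in A549 spheroids (-0.76, -1.10 to -0.44). Of the 4 members listed as p53-linked, PURPL and TP53TG1 were lower by the rule in H1993 spheroids, and MIR34AHG and NEAT1 did not pass. IGFL2-AS1 had 124 reads in H1993 spheroids and 990 in A549 spheroids, a log2 fold of -2.86 (-3.16 to -2.61).

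The libraries labelled adherent were the closest pair, with 13 members higher and 11 lower in the adherent library labelled H1993 than in A549 adherent cells (13.5% and 11.5%), against 6.95% and 5.49% of all filtered genes and 4.81% and 4.07% at the read limit. LINP1 and LINC00707, neighbours 40572 bases apart on chromosome 10, were both lower. LINP1 (6737382 to 6739026), named for its part in repair of DNA ends, had 21 reads in the adherent library labelled H1993 and 213 in A549 adherent cells, a log2 fold of -3.35 (-4.19 to -2.82). LINC00707 (6779598 to 6842906) had 47 reads in the adherent library labelled H1993 and 242 in A549 adherent cells (-2.44, -2.98 to -2.04). In spheroids the neighbours were also lower in H1993 than in A549, at -1.70 and -2.17. LINC03033 was the highest above A549 adherent cells, with 353 reads in the adherent library labelled H1993 and 25 in A549 adherent cells (3.59, 3.10 to 4.34), and between 20.0% and 36.3% of its reads were unique in the 4 libraries.

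A total of 14 of the 98 met a stricter description, in which libraries of 1 line, of 1 culture or a single library stood at least 4-fold above all the others (plot of the 14 by library). A line set apart 3 members, AC016831.1, LINC00665 and LINC02967, all in H1993, or 3.06% against 1.15% of the genes at the read limit. No member was set apart in A549. A culture set apart LINC02889 alone, in spheroids, or 1.02% against 1.2%. A single library set apart 10 members (10.2% against 4.31%): AL645608.8, AL139246.5, AC144450.1, LINC01127, LINC01123, MIR4458HG, LINC00589 and LNCAROD in H1993 spheroids, LINC03034 in A549 spheroids and LINC03033 in the adherent library labelled H1993. H1993 spheroids thus held 8 of these 10, as they did 317 of the 457 single-library genes of any type at the read limit (69.4%). Genes of any type therefore leaned to that library too. Each of the 14 reached the read limit in its highest library alone, so a high level in that library was tied to its entry. AC144450.1 and LINC01127 did not pass the filter on low counts.

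**Figure D1:**
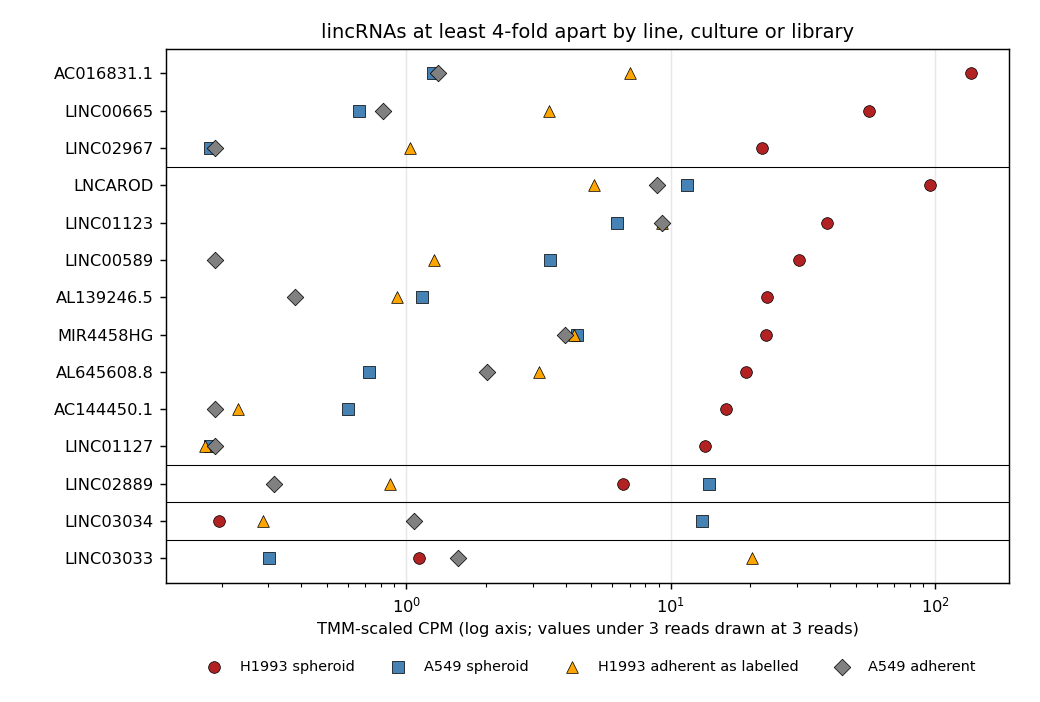
Level of the 14 lincRNAs set apart by line, single library or culture, in TMM-scaled CPM (reads scaled by library size) on a log axis, with 1 point per library and values under 3 reads drawn at the level of 3 reads. Blocks from top to bottom hold the H1993 line, H1993 spheroids, spheroid culture, A549 spheroids and the adherent library labelled H1993; in the top block the triangles of that library lie between those of H1993 spheroids and both A549 libraries.

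AC016831.1 (ENSG00000226380, chromosome 7, 130876809 to 130913310, minus strand), the unnamed carrier of miR-29b, had the most reads of the line group. It had 2078 exon reads in H1993 spheroids, 21 in A549 spheroids, 122 in the adherent library labelled H1993 and 21 in A549 adherent cells. The log2 fold of H1993 over A549 was 6.61 (6.13 to 7.44) between spheroids and 2.31 (1.73 to 3.15) between the libraries labelled adherent. Its 4 values separate the lines, but the adherent library labelled H1993 reached only 5.17% of the H1993 spheroid level.

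LINC00665 (ENSG00000232677, chromosome 19, 36313067 to 36331718) had 855 reads in H1993 spheroids, 11 in A549 spheroids, 60 in the adherent library labelled H1993 and 13 in A549 adherent cells. LINC02967 (ENSG00000274173, chromosome 20, 24931840 to 24932983) had 338 reads in H1993 spheroids, 18 in the adherent library labelled H1993 and 0 in both A549 libraries. Against a floor of 3 reads per library it was at least 122-fold higher in H1993 than in A549 spheroids, and at least 5.49-fold higher between the libraries labelled adherent. In the adherent library labelled H1993 all 3 members lay between 4.69% and 6.18% of their H1993 spheroid level. Without that library, a line set apart 19 members (19.4%, against 8.12% of genes at the read limit), a culture 3 (3.06% against 1.48%) and a single library 1 (1.02% against 0.999%). In that count H1993 spheroids alone stood for the H1993 line, and A549 adherent cells alone for adherent culture. A member set apart by 1 library could thus count under line or culture, so these shares cannot be compared with those from 4 libraries.

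LINC02889 (ENSG00000236039, chromosome 7, 17405479 to 17558909) was the culture-specific member. It had 101 reads in H1993 spheroids, 232 in A549 spheroids, 15 in the adherent library labelled H1993 and 5 in A549 adherent cells. Both spheroid counts lay above both adherent counts, with log2 folds of 5.01 (4.23 to 7.11) in A549 and 2.77 (2.15 to 3.82) in H1993.

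LINC01127, AC144450.1 and AL645608.8 lie close to coding genes, and LINC01127 had 206 reads in H1993 spheroids, 0 in A549 spheroids, 2 in the adherent library labelled H1993 and 0 in A549 adherent cells. It was at least 74.5-fold higher in H1993 than in A549 spheroids. IL1R2, a decoy receptor for interleukin-1 4677 bases away, had 378 reads in H1993 spheroids, 118 in A549 spheroids, 10 in the adherent library labelled H1993 and 18 in A549 adherent cells. Its log2 fold was 5.15 in the H1993 pair and 2.53 in the A549 pair, where LINC01127 had no reads in either library. AC144450.1 had 247 reads in H1993 spheroids, 10 in A549 spheroids, 4 in the adherent library labelled H1993 and 3 in A549 adherent cells. PXDN, a matrix peroxidase gene 6468 bases away, was also higher in the H1993 pair, with 125 reads in H1993 spheroids and 24 in the adherent library labelled H1993, but A549 spheroids had 844 and A549 adherent cells 220. AC144450.1 and PXDN therefore had no common order over the 4 libraries. AL645608.8 (ENSG00000272512, chromosome 1, 995966 to 998051) had 295 reads in H1993 spheroids, 12 in A549 spheroids, 55 in the adherent library labelled H1993 and 32 in A549 adherent cells. HES4, a transcriptional repressor gene of the Notch target family 911 bases away on the same strand, had 1715 reads in H1993 spheroids and 327 in the adherent library labelled H1993. Their log2 folds in the H1993 pair were 2.56 (2.19 to 3.05) for AL645608.8 and 2.57 for HES4. LINC01123, also high in H1993 spheroids with 598 reads against 104 in A549 spheroids, 161 in the adherent library labelled H1993 and 147 in A549 adherent cells, had at most 8.2% unique reads and aligns over 883 bases with 99.9% identity to LINC01106. A like fold of neighbours does not show that they share control, and for same-strand neighbours reads past the end of a gene cannot be told from a separate transcript here.

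Directions were compared across the lines for the members called in both pairs (plot of both folds). Higher in both were 8 members: AL139246.5, SNHG8, LINC02889, LINC00589, LINC02870, MIR210HG, AC002546.1 and AC005261.2, which are 40.0% of the members higher in A549 and 26.7% of those higher in H1993, against 40.2% and 23.9% for genes at the read limit. Lower in both were 4: AC006058.1, DUBR, LINC03033 and FP236241.1, or 36.4% of the members lower in A549 and 19.05% of those lower in H1993, against 32.8% and 21.5%. In opposite directions stood 8: AL645608.8, LINC01833, CASC15, LINC00473, PVT1, AC245041.2, AC245041.1 and MEG3. These are 25.8% of the members called in A549 and 15.7% of those called in H1993, against 11.9% and 7.46% for genes at the read limit. The difference in shares was not tested. The shares count AC245041.1 and AC245041.2 as separate genes, although AC245041.1 lies within AC245041.2 and had no unique reads. LINC00473 overlaps PDE10A on the same strand, and most of its reads were not unique. The A549 pair and the H1993 pair share no library, but their members were chosen on all 4.

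**Figure D2:**
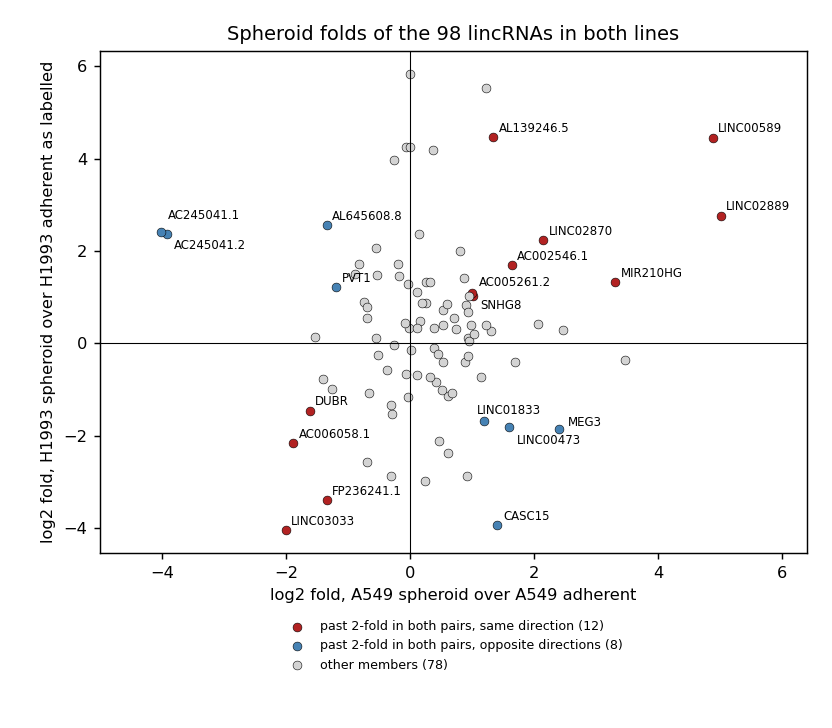
Log2 fold of spheroid over adherent for the 98 lincRNAs, in the A549 pair on the horizontal axis and in the H1993 pair as labelled on the vertical axis, 1 point per gene. The 12 red points passed the rule in both pairs in the same direction, the 8 blue points in opposite directions, and 78 grey points in at most 1 pair.

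LINC00589 (ENSG00000251191) had 466 reads in H1993 spheroids, 58 in A549 spheroids, 22 in the adherent library labelled H1993 and 0 in A549 adherent cells. Against the floor of 3 reads it was at least 18.5-fold higher in A549 spheroids, and its log2 fold in the H1993 pair was 4.46 (3.97 to 5.28). AL139246.5, 8179 bases from TNFRSF14, had 352 reads in H1993 spheroids, 19 in A549 spheroids, 16 in the adherent library labelled H1993 and 6 in A549 adherent cells, so its A549 fold of 1.34 (0.22 to 3.21) rests on few reads. LINC02870 had nearly equal log2 folds, 2.15 (1.58 to 2.98) in A549 and 2.23 (1.83 to 2.75) in H1993. AC002546.1 was as even, with 1.64 (1.29 to 2.06) in A549 and 1.69 (1.39 to 2.03) in H1993. SNHG8, a small nucleolar RNA host, had 983 reads in H1993 spheroids, 1124 in A549 spheroids, 551 in the adherent library labelled H1993 and 529 in A549 adherent cells. It was even within each culture, and stood at 1.02 in both pairs and AC005261.2 at 1.0 and 1.09, next to the limit, and SNHG8 fell under it in both pairs when scaled by library size alone (0.91 and 0.95).

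DUBR (ENSG00000243701, chromosome 3, 107240692 to 107326964), named for binding upstream of DPPA2, had 92 reads in H1993 spheroids, 32 in A549 spheroids, 291 in the adherent library labelled H1993 and 98 in A549 adherent cells. It was lower in both spheroid libraries than in the adherent library of the same line, at -1.62 (-2.30 to -1.09) in A549 and -1.46 (-1.83 to -1.13) in H1993. Folds between libraries of the 2 lines were of like size: DUBR was higher in H1993 than in A549 by 1.58 in spheroids and 1.42 between the libraries labelled adherent. An effect of line was not tested.

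MEG3 (ENSG00000214548, chromosome 14, 100779410 to 100861031), an imprinted lincRNA expressed from the maternal copy, moved in opposite directions. It had 222 reads in H1993 spheroids, 2803 in A549 spheroids, 924 in the adherent library labelled H1993 and 505 in A549 adherent cells. The A549 spheroid library was the highest and the H1993 spheroid library the lowest, and the adherent libraries lay between. Its log2 folds were 2.40 (2.27 to 2.55) in A549 and -1.86 (-2.09 to -1.66) in H1993. PWAR6, from the imprinted Prader-Willi region, had 0% unique reads and lies within SNHG14, so its counts cannot be assigned.

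CASC15 (ENSG00000272168, chromosome 6, 21664772 to 22368328), known from a cancer susceptibility region, had 25 reads in H1993 spheroids, 595 in A549 spheroids, 465 in the adherent library labelled H1993 and 213 in A549 adherent cells. Its log2 folds were 1.41 (1.19 to 1.65) in A549 and -3.94 (-4.68 to -3.45) in H1993, the widest gap among the opposite members other than the pair on chromosome 10. LINC00473 (ENSG00000223414, chromosome 6, 165908802 to 165988048), known as a cAMP-induced transcript and overlapping PDE10A on the same strand, had 320 reads in H1993 spheroids, 1641 in A549 spheroids, 1292 in the adherent library labelled H1993 and 516 in A549 adherent cells. Between 23.1% and 26.6% of these reads were unique. Its order of libraries was that of CASC15.

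PVT1 (ENSG00000249859) and its neighbour MYC, 53099 bases away, differed alike. PVT1 had 770 reads in H1993 spheroids, 222 in A549 spheroids, 374 in the adherent library labelled H1993 and 486 in A549 adherent cells. MYC, a growth-promoting transcription factor gene, had 2404 reads in H1993 spheroids, 517 in A549 spheroids, 919 in the adherent library labelled H1993 and 1461 in A549 adherent cells. For PVT1 the log2 folds were -1.19 (-1.43 to -0.96) in A549 and 1.22 (1.05 to 1.41) in H1993, against -1.56 and 1.57 for MYC. The 4 libraries stood in the same order for both genes. AC245041.2 and AC245041.1, of which the second lies within the first on chromosome 10, count as 1 signal: AC245041.2 had 791 reads in H1993 spheroids, 43 in A549 spheroids, 173 in the adherent library labelled H1993 and 650 in A549 adherent cells, with at most 46.2% unique.

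The microRNA hosts did not share a direction (plot of the hosts). In the A549 pair 2 of 9 were higher by the rule and none lower; in the H1993 pair 4 were higher and 2 lower. MIR210HG (ENSG00000247095, chromosome 11, 565660 to 568457), host of the hypoxia-induced miR-210, was the 1 host higher in both pairs. It had 395 reads in H1993 spheroids, 608 in A549 spheroids, 178 in the adherent library labelled H1993 and 57 in A549 adherent cells, with log2 folds of 3.31 (2.96 to 3.77) in A549 and 1.32 (1.07 to 1.60) in H1993. Of the 4 members listed as linked to hypoxia it was also the 1 that passed in either pair; NEAT1, MALAT1 and LINC00511 did not.

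**Figure D3:**
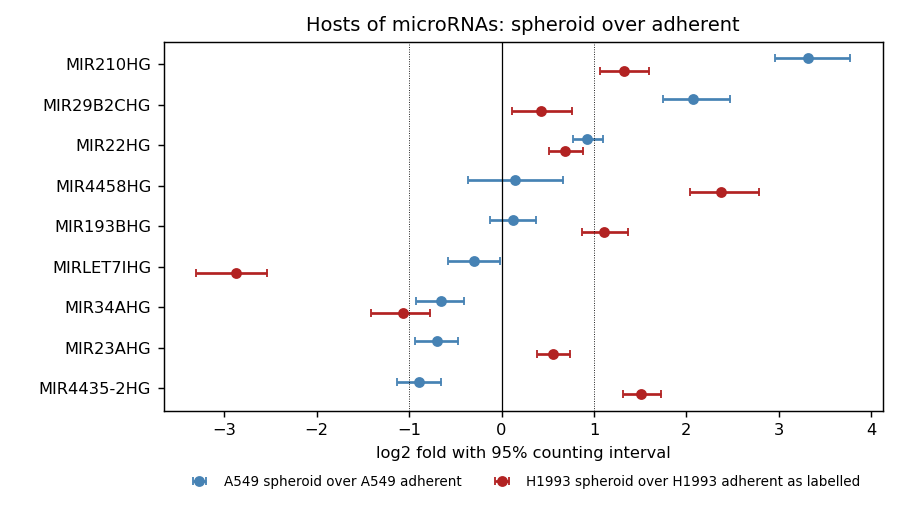
Log2 fold of spheroid over adherent for the 9 lincRNAs named as microRNA hosts, with bars for the 95% counting interval and dotted lines at 2-fold. Blue points give the A549 pair and red points the H1993 pair as labelled; MIR210HG lies right of the upper dotted line in both, and MIR4435-2HG and MIR23AHG lie on opposite sides of 0.

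The hosts of the miR-29 seed differed in where they were high. MIR29B2CHG (ENSG00000203709, chromosome 1, 207801518 to 207879096) had 174 reads in H1993 spheroids, 358 in A549 spheroids, 146 in the adherent library labelled H1993 and 80 in A549 adherent cells. Its highest library was A549 spheroids, with a log2 fold of 2.07 (1.75 to 2.47) over A549 adherent cells, whereas AC016831.1 had 21 reads in each A549 library. The hosts of the let-7 seed also differed. MIRLET7IHG had 66 reads in H1993 spheroids and 562 in the adherent library labelled H1993, a log2 fold of -2.87 (-3.30 to -2.54). MIR4458HG had 349 reads in H1993 spheroids and 75 in the adherent library labelled H1993 (2.37, 2.04 to 2.78). In A549 neither passed the rule, at -0.30 (-0.58 to -0.02) and 0.15 (-0.36 to 0.66).

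MIR34AHG had 218 reads in A549 spheroids and 331 in A549 adherent cells, a log2 fold of -0.66 (-0.92 to -0.41). In H1993 it was lower at -1.07 (-1.41 to -0.77), which came to -1.0 on the TPM scale and so missed the limit. MIR22HG stood higher by less than 2-fold in both pairs, at 0.93 (0.77 to 1.10) and 0.69 (0.51 to 0.88). MIR193BHG passed in the H1993 pair at 1.11 (0.87 to 1.37) and not in the A549 pair at 0.12 (-0.12 to 0.37), and the difference between the lines was not tested.

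MIR4435-2HG (ENSG00000172965, chromosome 2, 111196350 to 111495100) and CYTOR (ENSG00000222041, chromosome 2, 87455368 to 87606805) are copies: their transcripts align over 2254 bases with 99.25% identity. MIR4435-2HG had 684 reads in H1993 spheroids, 236 in A549 spheroids, 272 in the adherent library labelled H1993 and 420 in A549 adherent cells. CYTOR had 367 reads in H1993 spheroids, 179 in A549 spheroids, 382 in the adherent library labelled H1993 and 498 in A549 adherent cells. Both were lowest in A549 spheroids, and they parted in the H1993 pair, with 1.51 (1.31 to 1.72) for MIR4435-2HG and 0.13 (-0.08 to 0.34) for CYTOR. Between 74.6% and 81.9% of reads on MIR4435-2HG and between 65.9% and 80.9% on CYTOR were unique, so some reads could have been given to either gene.

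Small nucleolar RNA hosts, the other precursor group, had 4 members. SNHG15 (ENSG00000232956) had 996 reads in H1993 spheroids, 231 in A549 spheroids, 342 in the adherent library labelled H1993 and 392 in A549 adherent cells, so it was high in 1 library. Its log2 folds were -0.82 (-1.07 to -0.59) in A549 and 1.72 (1.55 to 1.91) in H1993. EPB41L4A-AS1 had 726 reads in H1993 spheroids, 686 in A549 spheroids, 309 in the adherent library labelled H1993 and 359 in A549 adherent cells. Both spheroid libraries lay above both adherent ones, with 0.87 (0.68 to 1.06) in A549 and 1.41 (1.22 to 1.61) in H1993. By the rule 1 of the 4 was higher and 1 lower in A549, and 3 were higher in H1993.

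The fit over both lines, with line and culture as terms and 1 residual degree of freedom, was the test the design allowed. In edgeR's quasi-likelihood test the culture term called 0 of 15273 genes and so 0.0% and 0 members at an adjusted p of 0.05, and 10 of the 96 filtered members had an unadjusted p under 0.05 (10.4%, against 8.24% of all filtered genes). The lowest was LINC00589, with an adjusted p of 0.339 in edgeR. DESeq2 called 6 members (6.25%), against 591 of all genes (3.87%): LINC00589 with an adjusted p of 1.95e-05, LINC02889 with 0.000917, LINC03033, AL139246.5, MIR210HG and AC006058.1. All 6 are among the members called in the same direction in both pairs. The fit and the pairs use the same 4 libraries, so this match is no separate evidence. The lines stand in as replicates here, so that the culture term of a member with opposite folds lies between them.

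Intron reads were a readout that the choice of members did not use. Summed over the 98 genes, introns held 14.8% of gene reads in H1993 spheroids, 11.7% in A549 spheroids, 15.8% in the adherent library labelled H1993 and 18.5% in A549 adherent cells. Genes of any type at the read limit had 9.92%, 7.15%, 9.72% and 8.99% in the same order. The median of the members' own percents was 18.1% in H1993 spheroids and 15.9% in A549 spheroids. It was 16.4% in the adherent library labelled H1993 and 14.2% in A549 adherent cells. A549 adherent cells were thus highest by the sum and lowest by the median. The sum hides a wide spread, since NEAT1, MALAT1 and NORAD had at most 4 intron reads each in any library, and PVT1 between 74.7% and 82.1%. The annotated exons of NEAT1 and MALAT1 span the whole gene, at 22767 and 8755 bases. Their low intron counts were therefore set by the annotation and say nothing about processing.

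**Figure D4:**
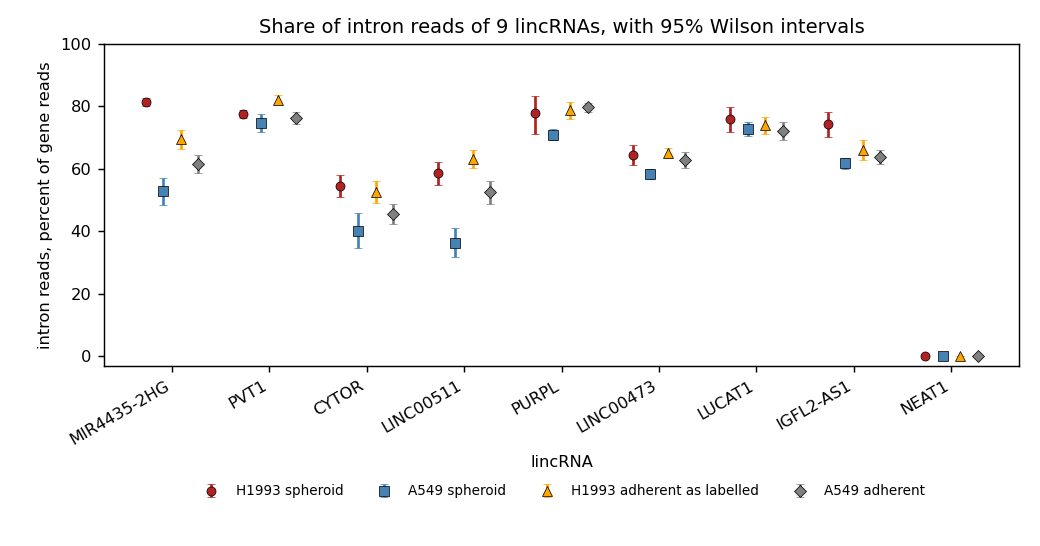
Share of gene reads that fell in introns, in percent, for 9 lincRNAs in the 4 libraries, with 95% Wilson intervals as bars. NEAT1, whose annotated exons span the whole gene, lies at 0 in every library. MIR4435-2HG and LINC00511 have the widest range between libraries, with A549 spheroids lowest for both.

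MIR4435-2HG had 81.5% (Wilson interval 80.2 to 82.7) intron reads in H1993 spheroids, 52.8% (48.4 to 57.1) in A549 spheroids, 69.5% (66.4 to 72.4) in the adherent library labelled H1993 and 61.6% (58.7 to 64.5) in A549 adherent cells. The intervals of the 4 libraries did not overlap. MIR4435-2HG overlaps 5 annotated genes on its own strand and 4 on the opposite strand, and whether its intron reads came from these was not tested. LINC00511, an oncogene-like lincRNA reported in lung cancer, had 58.6% in H1993 spheroids, 36.2% in A549 spheroids, 63.3% in the adherent library labelled H1993 and 52.5% in A549 adherent cells. Among members with at least 200 gene reads in every library, these were followed in range by CU633904.1, AC060780.1 and CU633906.1, whose reads were almost all non-unique. Exon-exon junction reads made up a median of 8.45% to 10.4% of exon reads in the 79 members with more than 1 exon, against 27.3% to 27.7% in coding genes.

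Members were also set beside their nearest coding genes. Over the 73 members whose nearest coding gene passed the filter, the log2 folds of lincRNA and neighbour had a Pearson correlation across genes of 0.41 in the A549 pair and 0.37 in the H1993 pair. Between lines it was 0.30 in spheroids and 0.23 in the libraries labelled adherent. Genes are not independent replicates, and some members overlap their neighbour. The 58 that do not gave 0.34 in the A549 pair and 0.53 in the H1993 pair. Between lines these 58 gave 0.38 in spheroids and 0.13 in the libraries labelled adherent. In 12 of the 73 the starts lay within 1 kb on opposite strands. These 12 gave 0.52 in the A549 pair and -0.12 in the H1993 pair, with the same sign in 5 and 6 of them. Between lines they gave 0.57 in spheroids and 0.56 in the libraries labelled adherent, with the same sign in 8 and 10. Where a pair shares strand and overlaps, such as LINC00473 and PDE10A, reads could not be divided with certainty.

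Promoter windows of 250 bases before to 50 after the RefSeq start (GRCh38.p14) were found for 56 members. MIR210HG is printed as the host higher in both pairs, with the core of the hypoxia response element (ACGTG or GCGTG, either strand) in capitals. The copies CYTOR and MIR4435-2HG are printed because they differ in the H1993 pair while their windows share 241 bases in 1 run, with the AP-1 motif TGANTCA in capitals.
MIR210HG (chr11:568408-568707, minus strand): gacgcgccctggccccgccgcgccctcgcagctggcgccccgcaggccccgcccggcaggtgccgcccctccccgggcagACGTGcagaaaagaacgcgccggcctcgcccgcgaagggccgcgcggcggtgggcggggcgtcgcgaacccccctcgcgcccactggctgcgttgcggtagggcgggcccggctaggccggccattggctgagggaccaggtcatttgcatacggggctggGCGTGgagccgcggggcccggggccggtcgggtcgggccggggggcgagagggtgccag
CYTOR (chr2:87455177-87455476, plus strand): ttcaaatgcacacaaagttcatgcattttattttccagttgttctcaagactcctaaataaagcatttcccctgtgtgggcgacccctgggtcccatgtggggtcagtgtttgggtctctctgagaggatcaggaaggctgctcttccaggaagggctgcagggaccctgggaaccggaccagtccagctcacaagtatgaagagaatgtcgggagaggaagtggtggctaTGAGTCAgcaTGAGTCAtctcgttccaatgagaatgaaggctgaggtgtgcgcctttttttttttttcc
MIR4435-2HG (chr2:111495112-111495411, minus strand): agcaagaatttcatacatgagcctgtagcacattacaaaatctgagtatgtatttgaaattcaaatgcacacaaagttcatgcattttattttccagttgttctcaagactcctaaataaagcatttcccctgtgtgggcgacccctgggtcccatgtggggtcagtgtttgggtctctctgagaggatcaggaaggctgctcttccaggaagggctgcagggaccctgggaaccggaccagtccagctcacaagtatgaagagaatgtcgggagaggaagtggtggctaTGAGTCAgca

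In CYTOR the window holds 2 copies of the AP-1 motif and in MIR4435-2HG 1. The shared run ends with the last base of the MIR4435-2HG window, just before the second copy in CYTOR. The bases past that window were not searched, so the count depends on where the windows were cut and shows no difference between the copies. Over all 56 windows the AP-1 motif was present in 8 (14.3%, against 7.72% of 34943 RefSeq promoters), ACGTG in 17 (30.4% against 21.4%) and GCGTG in 24 (42.9% against 36.5%). The antioxidant response motif TGACNNNGC was present in 11 (19.6% against 13.3%), the TEAD motif GGAATG in 5 (8.93% against 14.0%) and the TATA box TATAAA in 3 (5.36% against 11.6%). The motifs were searched on both strands and ACGTG and GCGTG can share bases. LUCAT1, a lincRNA induced by the antioxidant factor NRF2, held both the AP-1 and the antioxidant motif. Its reads were 105 in H1993 spheroids, 426 in A549 spheroids, 265 in the adherent library labelled H1993 and 267 in A549 adherent cells, with log2 folds of 0.61 (0.39 to 0.84) in A549 and -1.14 (-1.49 to -0.82) in H1993. A match describes letters in a window and says nothing of whether a factor was bound.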

How the data were processed

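The authors deposited 1 table per library with, per the file headers, whole-number counts of exon, intron, junction and unique reads, TPM, RPKM and fractions of intron and unique reads. The fraction, TPM and RPKM values come from the authors; fractions were recomputed from counts, and RPKM entered no comparison. The build was hg38, per the submitters' processing notes. For aligner, counter and use of strand: not given in the sources used here.

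Exon counts were scaled by TMM in edgeR 4.0.16, with log2 folds at a prior count of 2 and exact Clopper-Pearson 95% intervals. The culture term was fitted with glmQLFit and glmQLFTest on 15273 genes kept by filterByExpr, adjusted by Benjamini-Hochberg over all of them; DESeq2 1.42.0 was the alternative. The edgeR fit and the 2-fold rule were tested on simulated data. Alternatives were other scalings, limits, filters and prior counts, unique reads and exon plus intron reads. IDs of 93 members matched the name table, and 24 carry a newer symbol than the files. Genes named were role list members, the 6 highest and lowest called folds in each pair with 200 exon reads in the higher library of that pair, specific members, the 10 highest by TPM and the 5 widest in intron share; AC002546.1, AC005261.2, HCG11, LINC01127, LINC01833, LINC02870, PVT1 and MUC20-OT1 were chosen after their values were seen. Members and lists were chosen with earlier results of these data known. A floor of 3 reads is between 0.170 and 0.196 CPM. One gene list is not reported here.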

Additional observations from a re-analysis of the deposited data

Results flagged for a closer look

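The lincRNAs called in both pairs in opposite directions are given here because their fold lay on opposite sides of 0 in the A549 pair and the H1993 pair. With 1 library per line and culture, the difference between the lines was not tested. In A549 spheroids over A549 adherent cells the log2 folds were -1.34 for AL645608.8, -1.19 for PVT1, -3.92 for AC245041.2 and -4.02 for AC245041.1, against 2.56, 1.22, 2.36 and 2.42 for the same genes in H1993 spheroids over the adherent library labelled H1993. They were 1.19 for LINC01833, 1.41 for CASC15, 1.60 for LINC00473 and 2.40 for MEG3 in A549, against -1.68, -3.94, -1.82 and -1.86 in H1993. AC245041.1 lies within AC245041.2 and had 0% unique reads. The adherent library labelled H1993 enters every H1993 value.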

How the results depend on the processing

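No paired analysis was possible because the labels give no replicate numbers and each line and culture has 1 library. As shares of all 98 members, the called higher and lower were 20.4% and 11.2% in the A549 pair, 30.6% and 21.4% in the H1993 pair, 25.5% and 29.6% between spheroids and 13.3% and 11.2% between the libraries labelled adherent. A 4-fold limit gave 8.16% and 2.04%, 14.3% and 10.2%, 12.2% and 15.3%, and 4.08% and 4.08%. Members set apart by a line (3.06%) came to 10.2% at a 2-fold gap, 0% at 8-fold, 5.26% among members at 500 reads and 19.4% without the adherent library labelled H1993. For a culture (1.02%) these were 6.12%, 0%, 0% and 3.06%. For a single library (10.2%) they were 18.4% at 2-fold, 5.26% at 500 reads and 1.02% without that library. With that library left out, H1993 spheroids alone stood for the H1993 line and A549 adherent cells alone for adherent culture. Those shares therefore follow another definition. Leaving that library out and the limit of 50% unique reads were chosen after seeing the data. The culture term called 0 members in edgeR, 6 in DESeq2 and 1 (LINC00589) with no filter. Intron shares were also summed over the 35 members with more than 1 exon, an intron read in any library and 200 gene reads in every library. They were 12.6% in H1993 spheroids, 9.49% in A549 spheroids, 14.8% in the adherent library labelled H1993 and 15.3% in A549 adherent cells. NEAT1 and MALAT1, whose annotated exons span the whole gene, are in these sums. The median of the 35 genes' own percents was 42.8%, 36.4%, 43.8% and 42.9% in the same order. Of 224 log2 folds of named lincRNAs, 216 kept their side of the 2-fold rule on the TPM scale, which shifts the median of all genes by between -0.11 and 0.16, and 215 with library size alone. The sign turned in 4 and 5 of them, none of which passed the rule, and in 4 of 198 on unique reads, where AC060780.1 between spheroids had -0.12 in place of 0.67. Causes were not tested. With 1 library per group, these values describe libraries, and 21 members had under 50% unique reads in every library.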
